A study of Homo sapiens with 2 samples.

Results

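BCL11A and RUNX1 are transcription factor genes of early lymphoid and dendritic lineages, and all peaks that the authors' table assigned to either name were taken, whatever their values. They numbered 9 of the 661 distinct peaks in the table, 7 at BCL11A and 2 at RUNX1, among 275 named genes. The assay was ChIP-seq, the sequencing of chromatin fragments precipitated with an antibody, here against TCF4. The cells were TMD8, a human cell line that models activated B cell-like (ABC) lymphoma, the ABC subtype of diffuse large B cell lymphoma. The labels state that the line lacks a TCF4 copy number gain, carried a tetracycline-inducible TCF4 construct, and was kept in 60 ng/ml doxycycline for 24 hours. Both libraries, 1 from the TCF4 immunoprecipitate and 1 input from the whole cell extract, came from such induced cells, so the input carried the construct and the drug as well. Uninduced cells were not analysed here, and the signal of induced and native TCF4 cannot be told apart in these libraries. The labels do not say whether the line was a clone or a pool. No value has a replicate error, because there was 1 library of each kind, and all intervals cover counting error only.

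TCF4, also called E2-2, is a basic helix-loop-helix factor of the E protein family that binds as a dimer to short sites called E-boxes, with the letters CANNTG. It is known as a master regulator of plasmacytoid dendritic cells and takes part in B cell development. BCL11A is a zinc finger factor that mouse work has shown to be needed for early B cell and plasmacytoid dendritic cell development, and it is widely known for silencing fetal globin genes in red cell precursors. RUNX1 is the DNA-binding subunit of core-binding factor, required for blood stem cell emergence and for B cell development, and is a frequent target of translocations in leukaemia.

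Every BCL11A and RUNX1 peak lay away from the start site that the authors used. Both genes are read from the minus strand. The deposited distances led back to a single start at position 60780633 of chromosome 2 (hg19) for all 7 BCL11A peaks and at position 36260987 of chromosome 21 for both RUNX1 peaks, each to within 1 bp, once each peak's midpoint was shifted by the deposited centre distance. The centre distances carry no sign, so each midpoint was shifted up or down, whichever landed nearer to the shared start. Unshifted, the starts were off by up to 388 bp. The hg19 sequence under the peaks was not used here, so the bases shown are those before RefSeq start sites of the GRCh38.p14 build. RefSeq held 5 start windows for BCL11A. Of these, 4 began within 3017 bp of each other, and the fifth began between 22372 and 25389 bp further into the gene. The strongest BCL11A peak lay 23054.5 bp into the gene from the authors' hg19 start, a number inside that range. The range counts from 4 GRCh38.p14 starts, and none of them was matched to the authors' start. The peak was therefore not placed at the internal start. Because the builds differ, the gap between that peak and the internal start was not computed. The 250 bases before the internal BCL11A start (chr2:60528536-60528785, minus strand) and before the RUNX1 start (chr21:34888700-34888949, minus strand) are shown. The first was picked after the distance of the strongest peak was seen, and the RUNX1 window is the only one listed for that gene. Capitals mark E-boxes, and both sequences read 5′ to 3′.
BCL11A internal start: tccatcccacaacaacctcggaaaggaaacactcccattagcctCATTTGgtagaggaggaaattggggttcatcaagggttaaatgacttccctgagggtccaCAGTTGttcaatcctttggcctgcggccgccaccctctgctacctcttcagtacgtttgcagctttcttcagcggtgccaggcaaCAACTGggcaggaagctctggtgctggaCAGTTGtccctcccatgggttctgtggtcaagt
RUNX1 start: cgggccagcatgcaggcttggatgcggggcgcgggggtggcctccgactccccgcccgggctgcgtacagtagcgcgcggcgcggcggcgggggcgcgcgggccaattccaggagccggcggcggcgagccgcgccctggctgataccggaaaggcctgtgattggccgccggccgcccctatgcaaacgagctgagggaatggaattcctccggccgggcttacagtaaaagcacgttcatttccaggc

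The internal BCL11A window held 4 E-boxes, of which 3 had the letters CAGTTG on either strand, whereas the RUNX1 window held 0. The other 4 BCL11A windows together held 1. Of all 35116 such RefSeq windows, 61.8% held at least 1 E-box, 3.35% held 4 or more and 38.2% held 0. CANNTG reads the same on both strands, so each site was counted once. The variant CAGCTG was in 0 of the 6 windows of both genes, against 14.0% of all windows. The variant CAGGTG, on either strand, was also in 0 of the 6, against 17.5% of all windows. A RUNX-type site, TGTGGT on either strand, was found 1 time in the internal BCL11A window and in 11.0% of all windows. These matches describe letters, not occupied sites, and no window was shown to lie under a peak.

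At BCL11A the 7 peaks spread over 152.7 kb (kb, 1000 bp), from 48.2 kb upstream of the start to 1.84 kb beyond the end of the annotated transcript. The authors placed 5 of them within the gene, 1 upstream and 1 downstream. Read in the direction of transcription, the peaks fell into a distant upstream site, a row of 4 in the first part of the gene, and 2 in or near its last part. Gaps between neighbouring midpoints in the row of 4 were 12.3, 11.2 and 13.4 kb. The gap before the row was 58.9 kb, and the gaps after it were 24.8 and 31.7 kb. Whether the peaks lie in exons or introns was not analysed here.

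The upstream BCL11A peak (chr2:60828601-60829001, 400 bp wide) had 46 ChIP and 12 input reads, a fold over input of 5.02 (95% interval 2.62 to 10.4). The fold is the ratio of ChIP to input reads times the authors' library scaling of 1.31, with an exact Clopper-Pearson interval. The peak 10.7 kb into the gene (chr2:60769704-60770126, 422 bp) held 58 and 13 reads, a fold of 5.84 (3.16 to 11.6). These peaks were alike in ChIP and input reads, although they lie on opposite sides of the start.

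The peak 23.1 kb into BCL11A (chr2:60757351-60757851, 500 bp) had the highest fold of the gene, 12.9 (5.58 to 36.5), from 59 ChIP and 6 input reads. Its ChIP reads nearly equalled those of the 10.7 kb peak, and its input reads were the lowest of the 9 peaks. Only 22 of the 661 peaks in the table (3.33%) had 6 or fewer input reads. By score, the authors' normalized log2 ratio of ChIP over input, it ranked 74 of 661, and by ChIP read density 452.

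The next peak, 34.1 kb in (chr2:60746076-60746695, 619 bp), had 91 ChIP and 18 input reads, 6.62-fold (3.96 to 11.7). The peak 47.5 kb in (chr2:60732326-60733670) was the widest of the gene at 1344 bp and had 230 ChIP and 42 input reads, 7.17-fold (5.14 to 10.2). This is the BCL11A site with by far the most ChIP reads, rank 63 of 661, and the one measured most precisely, yet its score ranked 259.

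The last BCL11A peaks had the lowest folds. The peak 72.4 kb in (chr2:60708004-60708401, 397 bp) had 54 ChIP and 17 input reads, 4.16-fold (2.37 to 7.65). The peak 104.2 kb from the start, downstream of the gene (chr2:60676276-60676651, 375 bp), held 51 and 17 reads, a fold of 3.93 (2.23 to 7.26). Both carry the accession of a longer transcript, NM_018014, whereas the other 5 carry NM_022893. Transcript ends implied by the distances differ by the accession, at position 60678301 for NM_018014 and 60684328 for NM_022893.

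**Figure D1:**
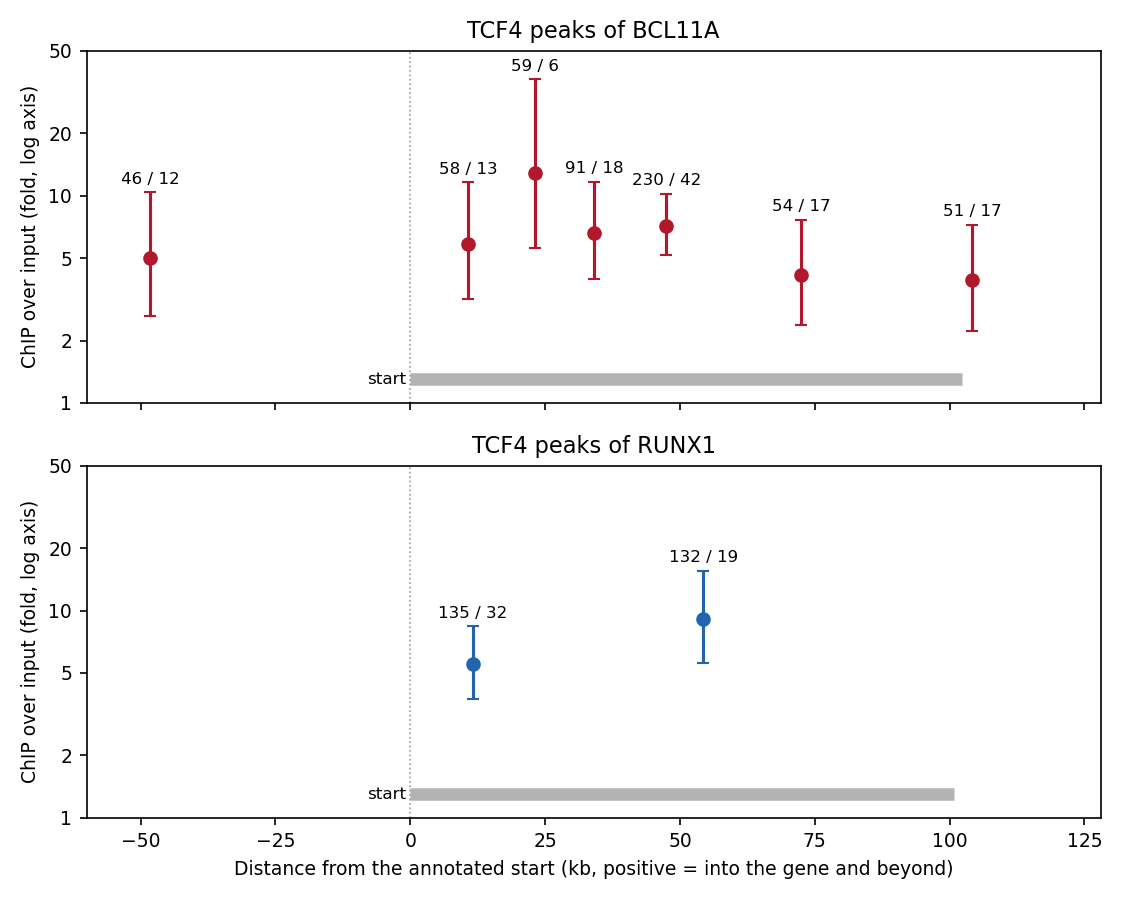
Fold of TCF4 ChIP over input (log axis) at each peak against its distance from the authors' start site in kb, for BCL11A (top) and RUNX1 (bottom). Points are peaks labelled with ChIP / input reads, bars are exact 95% intervals for counting error, and grey bars are the longest transcript among the accessions in the table. The BCL11A peaks range from 3.93 to 12.9-fold with wide overlap of their intervals, and no peak lies nearer to the authors' start than 10.7 kb.

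At RUNX1 the 2 peaks lay within the gene and 42.4 kb apart, with nearly equal ChIP reads. The peak 11.6 kb in (chr21:36248451-36249547, 1096 bp wide) had 135 ChIP and 32 input reads, 5.52-fold (3.73 to 8.40). The peak 54.4 kb in (chr21:36206376-36206895, 519 bp) had 132 ChIP and 19 input reads, 9.10-fold (5.60 to 15.6). The deeper peak thus held about the same number of ChIP reads, while the peak nearer to the start was 2.11 times as wide. The wider peak was asymmetric, with its apex 168 bp from the border farther from the start, and its deposited centre distance was 388 bp, against 0 to 142 bp at the other 8 peaks. What that distance refers to is not stated in the file headers. The accessions of the 2 RUNX1 peaks, NM_001122607 and NM_001001890, led back to the same start and to different ends, at positions 36193573 and 36160096. RUNX1 is known to have a further, distal promoter, and distances from it were not analysed here.

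Within each gene most differences in fold were inside counting error. Of the 21 pairs of BCL11A peaks, the 95% interval of the ratio of folds left out 1 in 2 pairs, the 23.1 kb peak over the 72.4 kb peak (3.10, interval 1.06 to 10.2) and over the 104.2 kb peak (3.28, 1.12 to 10.9). With the interval widened to cover all 21 pairs, it left out 1 in 0 pairs. The 54.4 kb RUNX1 peak was 1.65 times the 11.6 kb peak (0.855 to 3.23). The highest RUNX1 fold was 0.707 times the highest BCL11A fold (0.220 to 1.96), an interval wide enough to hold either order. These are exact conditional intervals for pairs picked by their values, so they describe these libraries.

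The parts of the fold were also described per length, as the authors' normalized density of reads. Across the BCL11A peaks the ChIP density ran from 2.64 to 3.93, a 1.49-fold range, whereas the input density ran from 0.210 to 0.795, a 3.78-fold range. The strongest BCL11A peak by fold had 0.868 times the ChIP density of the weakest (95% interval 0.586 to 1.29) and 0.265 times its input density (0.0855 to 0.704). Pearson's r of the score was -0.93 with log2 input density and -0.03 with log2 ChIP density across the 7 peaks (Spearman's rho -0.75 and 0.29). With reads not divided by width, rho was 0.79 with ChIP reads and -0.05 with input reads. The order of folds thus followed the ChIP reads only in part. The highest fold, 12.9, had 59 ChIP reads, and the peak of 230 ChIP reads had a fold of 7.17. The score is computed from the reads plus 1, and these densities are the same reads divided by peak width. The peaks also share 2 libraries, so this is a description. Without the peak of 6 input reads, a choice made after its value was seen, the input range fell to 1.56-fold and r was -0.82 with input density and 0.65 with ChIP density over 6 peaks (rho -0.60 and 0.83). The wide input range and the lack of a relation to ChIP density thus rested on that peak.

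At RUNX1 the ChIP density differed more between the peaks than the input density. The 54.4 kb peak had a ChIP density of 5.84 and the 11.6 kb peak 2.83, a ratio of 2.06 (1.61 to 2.64). Their input densities were 0.642 and 0.512, a ratio of 1.25 (0.671 to 2.28). With the widths taken as fixed, the RUNX1 peaks differed in ChIP density beyond counting error, and in input density within it. Their ChIP reads were nearly equal, 132 and 135, so the difference in ChIP density followed from widths of 519 and 1096 bp. The intervals do not cover error in those widths. The density divides reads by peak width, and the widths were those the authors deposited.

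**Figure D2:**
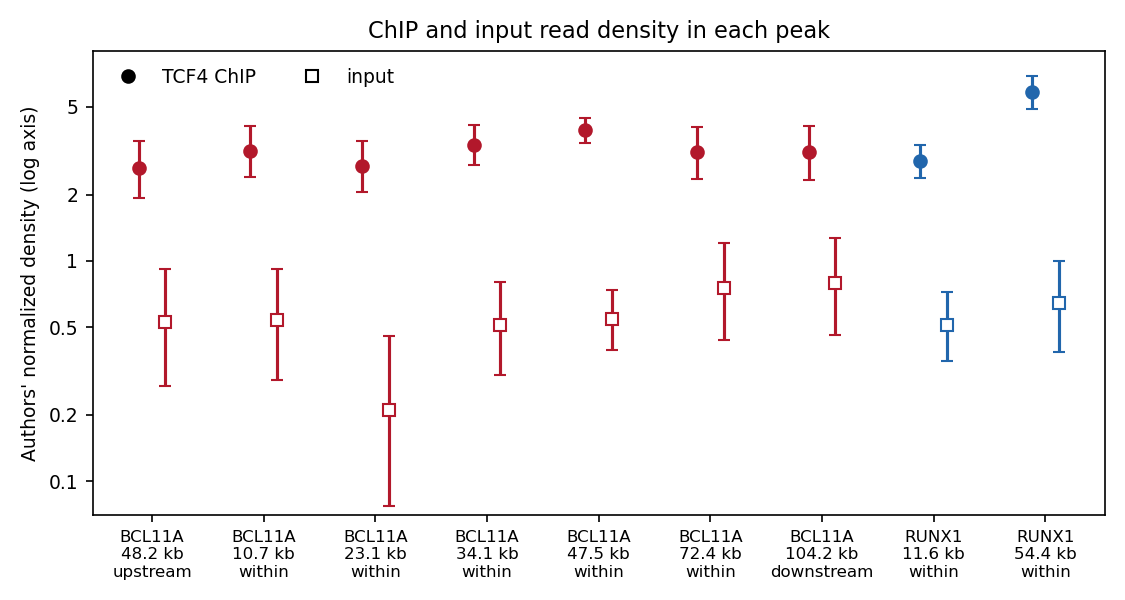
Normalized read density (authors' values, log axis) of TCF4 ChIP (filled circles) and input (open squares) in each peak, ordered along BCL11A (red) and RUNX1 (blue), with exact Poisson 95% intervals. ChIP densities of BCL11A stay between 2.64 and 3.93 while its 23.1 kb peak has the lowest input density, 0.210. The 54.4 kb RUNX1 peak has the highest ChIP density, 5.84.

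Among the 31 genes with at least 5 peaks, 17 had a wider range of input than of ChIP density, so BCL11A was not alone in this. The median ranges of these genes were 2.45-fold for ChIP and 2.49-fold for input. Of them, 5 had a narrower ChIP range than BCL11A and 3 had a wider input range. Over all 661 peaks the score correlated to a like degree with log2 ChIP density (r 0.56) and with log2 input density (r -0.58).

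Against the whole table, the peaks of both genes lay near the middle in strength. The fold interval lay above 2 in 9 of the 9 peaks, against 85.5% of all peaks. Without the library scaling it did so in 6 of the 9, 4 at BCL11A and 2 at RUNX1, against 72.9% of all peaks. At the 99% level it did so in 8 of the 9, against 79.7% of all peaks. The score reached the table's median in 4 of the 9, 3 at BCL11A and 1 at RUNX1, against 50.1% of all peaks. The upper quartile of the score was reached by 2 of the 9, the 23.1 kb BCL11A and the 54.4 kb RUNX1 peak, against 25.1% of all peaks. The median fold was 5.84 at BCL11A, 7.31 at RUNX1 and 6.36 over all peaks. ChIP density exceeded the table's median of 3.25 in 3 of the 9 peaks, against 49.9% of all peaks. Input density exceeded its median of 0.559 in 3 of the 9 peaks, also against 49.9%. The highest rank in ChIP density was 81 of 661, held by the 54.4 kb RUNX1 peak. With reads summed over peaks, BCL11A had 589 ChIP and 125 input reads in 4057 bp, a fold of 6.17 (5.08 to 7.55). RUNX1 had 267 and 51 reads in 1615 bp, a fold of 6.86 (5.07 to 9.44), and the ratio between the genes was 1.11 (0.769 to 1.62). The sum over all peaks gave 7.45-fold (7.31 to 7.59).

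**Figure D3:**
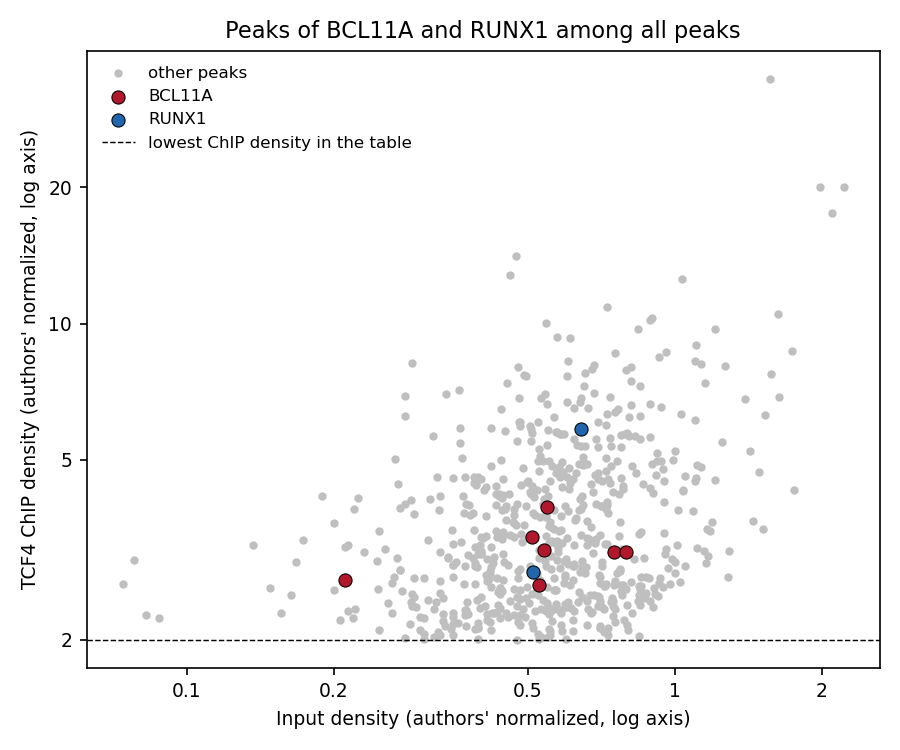
ChIP density against input density (authors' normalized values, log axes) for all 661 peaks (grey), with the BCL11A (red) and RUNX1 (blue) peaks marked. The dashed line is the lowest ChIP density in the table, 2.00. Most marked peaks sit inside the main cloud, with the 23.1 kb BCL11A peak at the left edge (input 0.210) and the 54.4 kb RUNX1 peak in its upper part (ChIP 5.84).

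BCL11A ranked high in the number of its peaks. It had 7, against a median of 2 per gene, and 4.00% of the 275 genes had at least that many. The genes ALCAM, a cell adhesion molecule gene, MBP, the gene of myelin basic protein, and XPNPEP1, an aminopeptidase gene, also had 7, and 7 genes had more. The 152.7 kb spread of the BCL11A peaks was below the median of 199.2 kb for genes with at least 5 peaks, and 21 of those 31 genes had a longer one. RUNX1, with 2 peaks, was typical: 73 other genes had 2 and 95 had more.

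Positions relative to the start were also compared with the table. The authors' promoter class, up to 2000 bp from a start, held 0 of the 9 peaks and 5.45% of all peaks. The nearest were 10.7 kb away at BCL11A and 11.6 kb away at RUNX1, and 17.9% of the 654 peaks with a distance lay within 10000 bp. Within the gene lay 7 of the 9 peaks, 5 of BCL11A and 2 of RUNX1, against 52.0% of all peaks. The table, which holds peaks of signature genes only, listed no peak of another gene within 1000000 bp of either gene's peaks. The nearest was 1.63 Mb (Mb, 1000000 bp) away for BCL11A, at B3GNT2, a glycosyltransferase gene, and 6.33 Mb away for RUNX1, at BACE2, a protease gene. The table held 33 peaks of 9 genes on chromosome 2 and 11 peaks of 4 genes on chromosome 21. Peaks of genes outside the signature would not be listed, so these distances do not show that the peaks are isolated.

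Both genes were marked Up in the authors' TCF4 signature in all 9 of their peaks, against 82.5% of all peaks (not of genes). A list of 44 transcription factors and cofactors of lymphoid and dendritic cells gave their company, of which 7 were named in the table, beside 1.34% of 20056 protein-coding genes. The list was written with earlier results of these data known, and the table holds signature genes only, so the count describes which factors were listed. Besides BCL11A and RUNX1 these were IRF4, the plasma cell and activated B cell factor, SPIB, an Ets factor of B and plasmacytoid dendritic cells, FOXP1, a forkhead factor, LMO2, a LIM-domain adaptor, and TCF4 itself. No other RUNX gene and not CBFB, which encodes the partner of RUNX1, was named, nor was the paralog BCL11B. A gene that the table did not name cannot be called unbound.

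The strongest peak of IRF4 had 631 ChIP and 49 input reads, 19.6 kb upstream, a fold of 16.9 (12.6 to 23.04). The single SPIB peak, 18.01 kb from the start and downstream of the gene, had 547 and 62 reads, a fold of 11.6 (8.87 to 15.3). The highest fold at BCL11A lay between these values, but on 59 ChIP reads, and its interval held both. The highest folds of LMO2 (9.28, interval 5.04 to 18.7), TCF4 (8.97, 4.98 to 17.5) and FOXP1 (8.40, 4.54 to 17.0) lay near the 9.10 of RUNX1. LMO2 was the only one of the 7 marked Down and the only one with a promoter peak. FOXP1 alone had more peaks than BCL11A, 10 against 7, and the 7 genes held 32 peaks together.

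**Figure D4:**
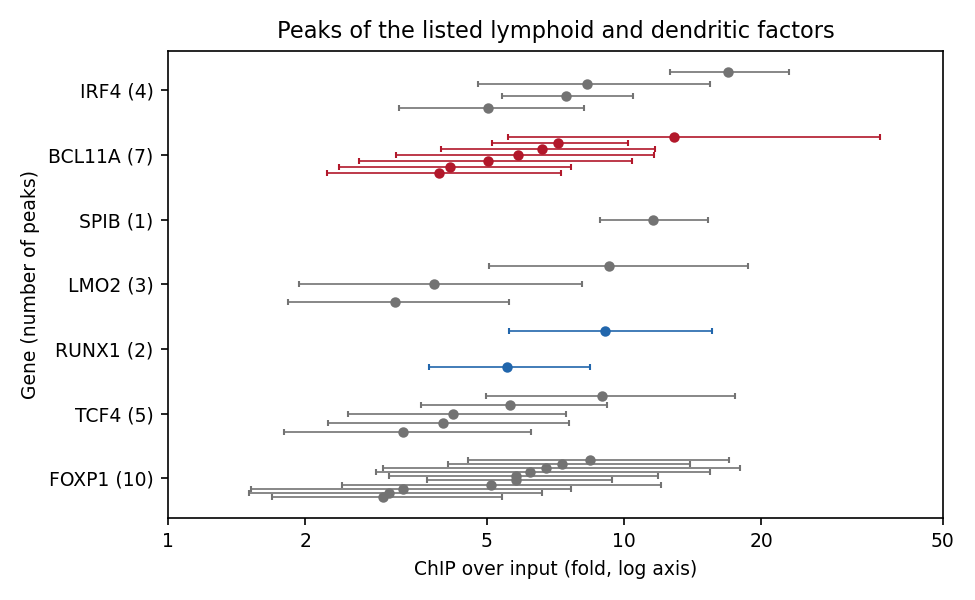
Fold of ChIP over input (log axis) with exact 95% intervals for every peak of the 7 listed factors named in the table, ordered by highest fold, with the number of peaks in brackets. BCL11A is red and RUNX1 blue. The interval of the highest BCL11A fold, 5.58 to 36.5, spans the highest folds of all 6 other factors, which run from 8.40 to 16.9.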

How the data were processed

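The submitters' processing notes name BWA, GATK and hg19 without version or role, and no peak caller is named in the labels or file headers. Spike-in chromatin was added per the labels' protocols, and its use in the scaling is not stated. Per the file headers, the table holds peaks related to signature genes, in 662 lines for 661 distinct peaks. The authors deposited whole-number read counts per peak, and the column marked IC was taken as the input, the only other library. The deposited log2 ratio equalled that of reads plus 1 in 661 peaks (tolerance 1e-06), and the normalized log2 ratio, the score, added 0.39, a scaling of 1.31-fold. The deposited signal is a read density of unstated unit. The deposited −log10 p-values served description only. Total library depth is not given, so the reads per peak set the precision.

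Exact intervals (Clopper-Pearson, Poisson, conditional odds ratio) were computed with Python 3.11.15 and scipy 1.17.1. The Clopper-Pearson and odds ratio intervals were tested on simulated reads that carry counting error only. For the odds ratio this was a single setting, with more input reads expected than the BCL11A peak of the highest fold had. The Poisson intervals were not tested. Reads amplified by PCR are not independent, so intervals can be too narrow. No p-value was computed, as there are no replicates. The genes named are both members, the listed factors in the table and the nearest other genes, and genes with as many peaks as BCL11A were added after their values were seen. Members, lists and alternatives (scaling, pseudocount, score limits, distance windows, confidence level) were chosen with earlier results of these data known. The search of RefSeq start windows replaced a planned search of the peaks, which needs the hg19 genome.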

Additional observations from a re-analysis of the deposited data

How the results depend on the processing

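The 9 folds were recomputed without library scaling and with 1 read added to each library, and all 18 values lay inside the original intervals. Dropping the scaling divides every fold by the same 1.31, and each interval reaches further down than that. Adding 1 read changes these counts little, so this result says little about the processing. Without scaling, the fold interval lay above 2 in 4 of the 7 BCL11A peaks in place of 7, and in both RUNX1 peaks, against 72.9% of all peaks. At the 99% level it lay above 2 in 8 of the 9 peaks, against 79.7%. Peaks at or above the median score numbered 4 of 9 (3 of BCL11A, 1 of RUNX1), against 50.1% of all peaks. Those in the upper quartile numbered 2 (1 of each gene), against 25.1% of all peaks. Within 50000 bp of the start lay 6 peaks, 5 of BCL11A and 1 of RUNX1, against 58.6% of all peaks with a distance. The promoter count was 0 in windows of 1000, 2000 and 5000 bp. These windows held 3.21%, 5.50% and 10.7% of all peaks with a distance, so 0 of 9 peaks is not far from those shares. All 7 listed factors kept a peak at or above the median score. Each was judged by its best peak, out of as many as 10 at FOXP1. The same share over all 275 genes was not computed, so the count does not set the factors apart. The ratio of the strongest RUNX1 to the strongest BCL11A fold was 0.707 by reads and by density, which are the same quantity. The motif count in peaks was not run. Depth limits most the 23.1 kb BCL11A peak, whose 6 input reads leave its fold between 5.58 and 36.5. No paired analysis was possible because only 1 library of each kind is given in the labels.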

Other observations

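The local p-value in the authors' deposited table ordered the BCL11A peaks differently from the read counts. The 47.5 kb peak, with 230 ChIP reads the richest of the gene, had a local −log10 p of 2.03 in the authors' deposited table, the lowest value there, which 19 of the 661 peaks share. The upstream peak, with the fewest ChIP reads of the gene, 46, had the highest of the 7 BCL11A values in the authors' deposited table, 4.77. The other p-value column in the authors' deposited table, headed Pos distr., followed the order of ChIP reads at BCL11A. Its −log10 p was 58.2 at the upstream peak and 141 at the 34.1 kb peak. It was infinite at the 47.5 kb peak, as at 242 of the 661 peaks. At RUNX1 the wide 11.6 kb peak had 2.43 and the narrow 54.4 kb peak 4.20 in the authors' deposited table. The labels and file headers do not say how the local p was computed.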
